A study of Sus scrofa with 4 samples.

Results

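The 5 miRNAs described here, miR-206, miR-133b, miR-1, miR-133a and miR-499, are the classical skeletal muscle miRNAs, and they were followed in pig vascular stem cells taken from muscle or from fat. They were chosen by name: every pig hairpin listed as mir-206, mir-133b, mir-1, mir-133a or mir-499, leaving out copy numbers. This gave 6 hairpins in each library, since miR-133a has 2 copies, out of 203 hairpins in IVSC MDI, 204 in IVSC, 199 in SVSC MDI and 198 in SVSC. Counted once over copies they were 5 of 189 miRNAs.

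The cells were primary pig cells at passage 1, from the longissimus dorsi, a back muscle (IVSC, intramuscular), or from subcutaneous fat (SVSC). MDI cells were taken through adipogenic induction 2 days after confluence, with insulin at 5 mg/l, dexamethasone, a synthetic glucocorticoid, at 0.25 µM and IBMX, which blocks phosphodiesterases, at 0.5 mM. The last pair was left out after 3 days, growth medium came back at day 6, and culture went on for a further 3 or 4 days. No days of culture are listed for IVSC and SVSC, so MDI and time in culture cannot be told apart. The groups were IVSC MDI, IVSC, SVSC MDI and SVSC, each with 1 library, all in medium with 20% serum. IVSC and IVSC MDI were plated at 1500000 cells per well and SVSC and SVSC MDI at 1000000, so density and origin cannot be told apart. The labels describe the cells of all 4 groups as adipose derived, those from muscle included. The sources used here do not say whether 1 animal gave all cultures. The series asked how the miRNAs of adipogenesis differ between both cell types.

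These miRNAs are switched on in the muscle lineage by the myogenic transcription factors and serum response factor, and they are rare in most other tissues. miR-206 and miR-1 share a seed, the stretch of bases that selects target mRNAs, and so do miR-133a and miR-133b. In mouse, miR-1 and miR-206 promote the differentiation of myoblasts, and miR-133a was described as promoting their proliferation. miR-206 is the most strictly skeletal of them and is clustered with miR-133b in the genome. miR-1 and miR-133a come from shared transcripts and are made in heart as well, and miR-499 lies in an intron of a myosin heavy chain gene. In the RefSeq annotation of the pig assembly Sscrofa11.1, MIR206 and MIR133B are neighbours with 0 genes starting between them. MIR1 and MIR133A-1 are neighbours in the same way, and MIR133A-2 lies on another chromosome.

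The libraries held 14810112 (IVSC MDI), 13252168 (IVSC), 2573249 (SVSC MDI) and 17937121 (SVSC) miRNA reads. Levels are hairpin reads divided by all miRNA reads of the same library (counts per 1000000, CPM), each range in parentheses being an exact 95% counting interval. A count of 0 would allow up to 3 reads, which is 0.203, 0.226, 1.17 and 0.167 CPM in the same order, so SVSC MDI is the least precise library. Intervals cover counting error only: a single library stands for each group, so there is no replicate check and no SD, and 2 libraries alone give no p-value. A miRNA was compared between 2 libraries if it reached 10 CPM in at least 1 of them, and it is said to rise or fall where both were met: a change of 2-fold or more, and an interval that does not hold 1. Skeletal muscle markers were not the main content of any library. The members together took 0.114% of the miRNA reads in IVSC MDI, 0.628% in IVSC, 0.0888% in SVSC MDI and 0.185% in SVSC. miR-486, another miRNA of muscle and of red blood cells, had 2.50, 5.06, 3.89 and 2.84 CPM. No reads were listed for miR-208b among the pig hairpins. All 4 smooth muscle and perivascular markers were present, at a summed 397252, 355154, 402874 and 259171 CPM, nearly all of it miR-143. Markers of unrelated tissues were low, but some lay above the scarcer members. miR-122 of liver had 3.11, 10.5, 1.94 and 24.1 CPM, and miR-9 of neurons 27.8, 12.7, 77.3 and 22.2 CPM. miR-205 of epithelium had 5, 2, 9 and 7 reads. In SVSC MDI miR-9 was above miR-133b (16.3 CPM) and miR-499 (10.5 CPM). In SVSC miR-122 was above miR-133a (21.6 CPM).

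miR-206 was abundant only in undifferentiated IVSC among these 4 libraries. Its level was 139.6 CPM in IVSC MDI (2068 reads), against 4874 CPM in IVSC (64588 reads). SVSC MDI had 1.55 CPM from 4 reads (0.424 to 3.98), against 2.79 CPM from 50 reads in SVSC (2.07 to 3.67). In IVSC it was the 12th most abundant miRNA and made up 77.7% of the members' reads. In IVSC MDI it ranked 87th and made up 12.3% of them, while it made up 0.175% in SVSC MDI and 0.150% in SVSC. The order of its levels was IVSC, IVSC MDI, SVSC and SVSC MDI, and the intervals of the last pair overlapped.

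miR-133b, the cluster partner of miR-206, had another order. It stood at 16.5 CPM in IVSC MDI (14.5 to 18.7), against 68.8 CPM in IVSC (64.4 to 73.4). It stood at 16.3 CPM in SVSC MDI (11.8 to 22.1), against 1.34 CPM in SVSC (0.857 to 1.99). IVSC was again the highest library and SVSC the lowest, and the MDI libraries of both cell types did not differ beyond their intervals.

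miR-1 was the member with the most even levels among the abundant ones. It stood at 882 CPM in IVSC MDI and 1242 CPM in IVSC, and at 661 CPM in SVSC MDI and 1818 CPM in SVSC. SVSC, from fat, was thus the highest library and SVSC MDI the lowest, and no intervals overlapped. miR-1 made up 77.6% of the members' reads in IVSC MDI, 19.8% in IVSC, 74.4% in SVSC MDI and 98.1% in SVSC, so it was the leading muscle miRNA everywhere but in undifferentiated IVSC.

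miR-133a had 85.5 CPM in IVSC MDI (80.8 to 90.3), against 78.2 CPM in IVSC (73.5 to 83.1). It had 199 CPM in SVSC MDI (182 to 217), against 21.6 CPM in SVSC (19.5 to 23.9). SVSC MDI was highest and SVSC lowest, and the intervals of the IVSC libraries overlapped. Nearly all of these reads lay outside the mature miRNA of the annotation, which held 5 of the 1266 reads in IVSC MDI. These are thus levels of reads elsewhere on the hairpin and not of the annotated mature miR-133a.

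miR-499 was low and flat, at 13.3 CPM in IVSC MDI, 12.8 CPM in IVSC, 10.5 CPM in SVSC MDI and 9.20 CPM in SVSC. The intervals of neighbours in this order all overlapped. The reads behind these levels were 197, 169, 27 and 165.

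**Figure D1:**
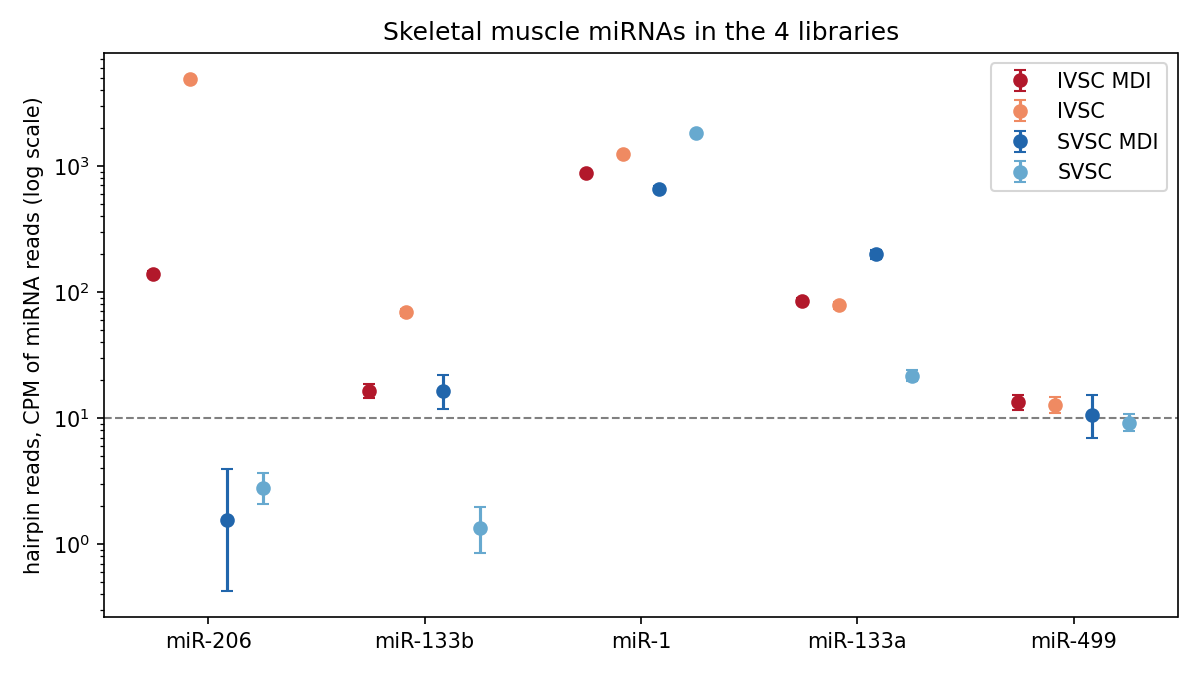
Level of each skeletal muscle miRNA (x axis) in the 4 libraries, as hairpin reads in CPM of miRNA reads on a log scale (y axis), with exact 95% counting intervals as bars and n = 1 library per group; the dashed line marks 10 CPM. miR-206 spans the range from 1.55 CPM in SVSC MDI to 4874 CPM in IVSC, while miR-499 stays between 9.20 and 13.3 CPM.

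Both miRNAs of the miR-206 cluster were lower in IVSC MDI than in IVSC, while the other members moved by less than 2-fold. miR-206 fell 34.9-fold (33.4 to 36.5), the lowest ratio of the 152 miRNAs compared. In bulk samples fewer cells of a type and less RNA per cell cannot be told apart. miR-133b fell 4.18-fold (3.62 to 4.83), with 6 miRNAs below it. The ratio was 0.710 for miR-1 (0.694 to 0.727), 1.09 for miR-133a (1.01 to 1.19) and 1.04 for miR-499 (0.845 to 1.29). So 2 of 5 members changed, where 40.1% of all miRNAs compared did. Both fell and none rose, where 23.7% of all fell and 16.4% rose. The members' median log2 ratio was -0.49, against -0.04 over all miRNAs. In the same libraries the smooth muscle markers did not move together. miR-145 had 5605 CPM in IVSC MDI and 1058 CPM in IVSC, and miR-143 387913.7 and 349985.7 CPM. miR-199a had 3488 and 3591 CPM, and miR-214 246 and 519 CPM. miR-126, an endothelial marker, had 89.6 and 134 CPM. Blood cell markers summed to 32.3 CPM in IVSC MDI and 34.9 CPM in IVSC, and the part of these cells in the ratios was not tested. Mature reads alone gave a 33.2-fold fall of miR-206 (31.8 to 34.7) and a 4.57-fold fall of miR-133b (3.91 to 5.36).

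In SVSC MDI, miR-133b was higher and miR-1 lower than in SVSC, and miR-206 was too low to compare. miR-133b rose 12.2-fold (7.22 to 21.1), on 42 reads in SVSC MDI and 24 in SVSC, and 2 of 146 miRNAs had a larger ratio. On its mature reads the rise was 13.9-fold (8.03 to 24.5). Only 1 of 37 mature reads in SVSC MDI and 0 of 23 in SVSC matched the annotated miRNA exactly. Exact reads therefore gave no ratio for miR-133b. miR-1 fell 2.75-fold (2.62 to 2.89). Hairpin reads of miR-133a rose 9.18-fold (8.03 to 10.5), but its mature reads were 0 in SVSC MDI and 19 in SVSC, so no rise of the mature miRNA was seen. miR-499 had a ratio of 1.14 (0.730 to 1.72), and its sign turned under 4 other scalings. Of the 4 members compared 3 changed, where 56.2% of all miRNAs compared did. Of these members 2 rose, where 34.2% of all miRNAs compared rose, and 1 fell, where 21.9% fell. The median log2 ratio was 1.69 over the 4 members compared and 0.19 with miR-206 added, against 0.41 over all miRNAs compared. Scalings other than miRNA reads moved all log2 ratios of this pair by -0.50 to -0.40, and the rise of miR-133b and the fall of miR-1 held under TMM and DESeq2 size factors. Scaled to all reads in the files, the log2 ratio of miR-133b was 3.12, but its level no longer reached 10 CPM. The SVSC MDI library was also the shallowest of the 4. Of the smooth muscle markers, miR-145 had 7440 CPM in SVSC MDI and 895 CPM in SVSC, and miR-143 390299.6 and 255706.5 CPM. miR-199a had 4594 and 2127 CPM, and miR-214 540 and 443 CPM. miR-126 of endothelium had 63.7 and 52.6 CPM. Of the blood cell markers, miR-142 had 19.4 and 5.41 CPM. miR-451 had 2.33 and 2.56 CPM, on 6 reads in SVSC MDI. The part of depth and of other cells in these ratios was not tested.

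The undifferentiated cultures differed most at the miR-206 cluster, of all miRNAs compared. miR-206 was 1748-fold higher in IVSC than in SVSC (1326 to 2356), the largest of 148 ratios, and miR-133b was 51.4-fold higher (34.3 to 80.7), the next largest. Hairpin reads of miR-133a were 3.61-fold higher in IVSC (3.21 to 4.07), while its mature reads were 11 in IVSC and 19 in SVSC. For miR-1 the ratio was below 1, at 0.683 (0.670 to 0.696), and for miR-499 it was 1.39 (1.11 to 1.73). Thus 3 of 5 members differed, where 28.4% of all miRNAs compared did. All 3 were higher in IVSC, where 20.9% of all were, and none was lower, where 7.43% were. The median log2 ratio was 1.85 for the members and 0.25 for all miRNAs. miR-126 also differed, with 134 CPM in IVSC and 52.6 CPM in SVSC, and the blood cell markers (2 of the 3 on the list) summed to 34.9 CPM in IVSC and 7.97 CPM in SVSC. Their part in the differences was not tested.

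After MDI, miR-206 was the only member higher in the cells from muscle by at least 2-fold. It was 89.8-fold higher in IVSC MDI than in SVSC MDI (35.0 to 330), again the largest ratio, of 147, although on only 4 reads in SVSC MDI. The ratio was 1.01 for miR-133b (0.725 to 1.44), 1.33 for miR-1 (1.27 to 1.40) and 1.27 for miR-499 (0.845 to 1.97). Hairpin reads of miR-133a were 2.32-fold lower in IVSC MDI (2.09 to 2.58), with 5 mature reads in IVSC MDI and 0 in SVSC MDI. Scaled to all reads in the files, this ratio no longer reached 2-fold (log2 -0.70). So 2 of 5 members differed, where 27.9% of all miRNAs compared did. Of these 1 was higher, where 10.2% of all miRNAs compared were, and 1 was lower, where 17.7% were. The median log2 ratio was 0.34 for the members and -0.13 for all miRNAs.

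**Figure D2:**
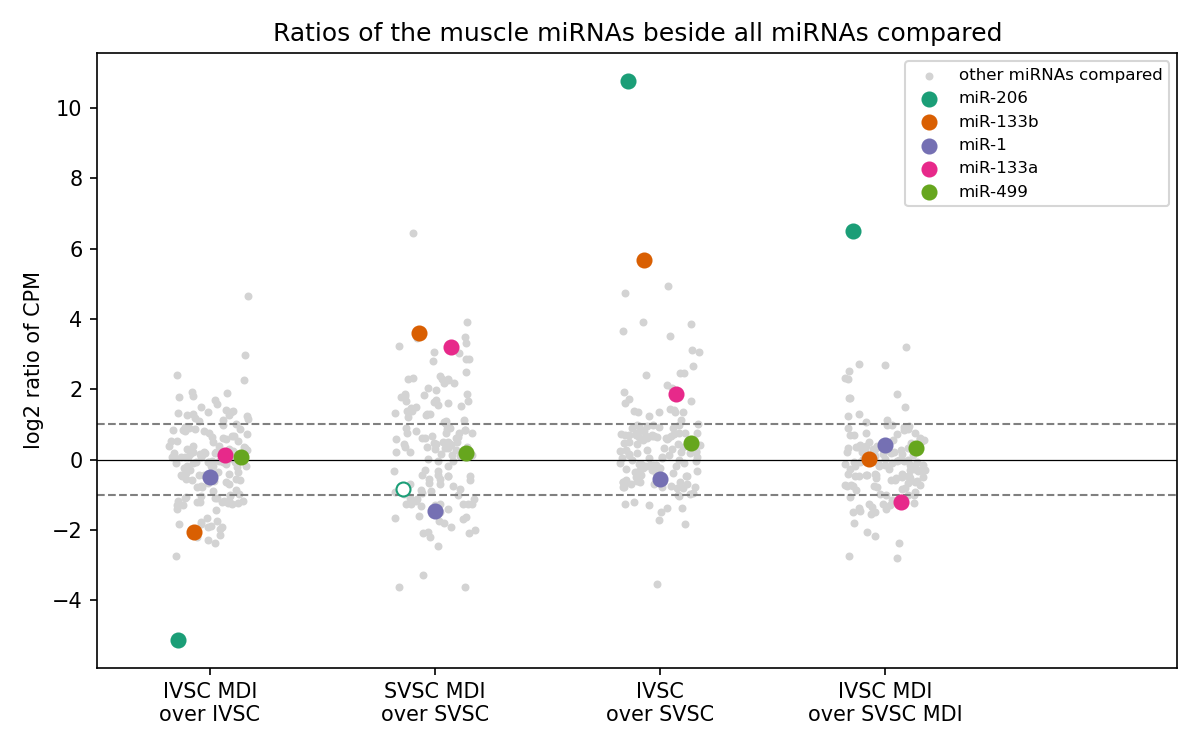
Log2 ratio of CPM (y axis) for the skeletal muscle miRNAs (large coloured points) and the other miRNAs compared (small grey points) in each of the 4 pairs of libraries (x axis); dashed lines mark 2-fold and the open point was below 10 CPM in both libraries. miR-206 is the lowest point in IVSC MDI over IVSC (-5.13) and the highest in both ratios of IVSC to SVSC (10.77 and 6.49).

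The response to MDI was set side by side in both cell types as the log2 ratio in IVSC minus that in SVSC, with a 95% interval for counting error. For miR-133b there was a fall in IVSC and a rise in SVSC, the latter with no ratio on exact reads. Its difference was -5.67 (-6.42 to -4.92), the largest in size of 155 miRNAs. For miR-206 it was -4.28 (-5.75 to -2.81), but its levels were under 10 CPM in both SVSC libraries. There miR-206 was 1.79-fold lower with MDI (0.658 to 6.84), on 4 and 50 reads. That counting interval leaves out a fall of the size seen in IVSC. At these levels miR-206 was not compared in SVSC, so no difference of response is read from it. It was -3.07 for hairpin reads of miR-133a (-3.29 to -2.85), 0.97 for miR-1 (0.89 to 1.04) and -0.13 for miR-499 (-0.79 to 0.53). A difference of at least 2-fold whose interval excluded 0 was reached by 3 of 5 members, miR-206 among them only through its IVSC levels, and by 46.5% of all miRNAs. miR-1 lay just under 2-fold, and passed it under each of 4 other scalings (1.37 to 1.67).

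A single MDI effect and a single origin effect were also fitted on all 4 libraries with an additive edgeR quasi-likelihood model, adjusted by Benjamini-Hochberg over 179 miRNAs. miR-206 was lower with MDI, with a log2 ratio of -4.00 ± 0.81 (SE) and an adjusted p of 0.000314 (edgeR). This value rests on IVSC, where the log2 ratio was -5.13, while in SVSC it was -0.84 on 4 and 50 reads, within counting error. miR-206 was 1 of 5 members that fell, where 4.47% of all miRNAs fell, and no member rose, where 6.15% did, and 10.6% of all changed. It was also higher in cells from muscle, with a log2 ratio of 9.24 ± 0.89 (SE) and an adjusted p of 7.75e-18 (edgeR), in 2 of 2 states. Again it was 1 of 5 members, where 2.23% of all miRNAs were higher and 0.559% lower, 2.79% in all. The other members had adjusted p-values of 0.178 to 0.990 for MDI and of 0.310 to 0.996 for the tissue of origin, both from edgeR. This fit has 1 residual degree of freedom and takes the spread of a miRNA from all miRNAs, so its p-values do not measure the spread between animals or cultures.

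Hairpin reads of the cluster partners did not move in step. There were 8.48 hairpin reads of miR-206 for each read of miR-133b in IVSC MDI (7.42 to 9.72), against 70.8 in IVSC (66.3 to 75.7). SVSC MDI had 0.0952 (0.0248 to 0.262), against 2.08 in SVSC (1.26 to 3.54). The ratio was thus 8.36-fold lower with MDI in IVSC (7.21 to 9.69). In SVSC it was 21.9-fold lower with MDI (7.03 to 68.1), but on 4 and 50 reads of miR-206, which was too low to compare there. By hairpin reads miR-206 was ahead of its partner in 3 libraries, and miR-133b was ahead in SVSC MDI, with 42 reads against 4. Of the mature reads of miR-133b there, 1 of 37 was an exact match. Exact reads were 3 for miR-206 and 1 for miR-133b, too few to form a ratio.

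For the other cluster, there were 10.3 hairpin reads of miR-1 for each read of miR-133a in IVSC MDI (9.74 to 10.9), against 15.9 in IVSC (14.9 to 16.9). SVSC MDI had 3.33 (3.01 to 3.68), against 84.0 in SVSC (76.0 to 93.1). With MDI the ratio was 1.54-fold lower in IVSC (1.41 to 1.68) and 25.3-fold lower in SVSC (21.9 to 29.1). The ratio of miR-1 to miR-133a set mature miR-1 against reads elsewhere on the miR-133a hairpin. Both partner ratios of hairpin reads were lower with MDI in both cell types. In the comparison of IVSC with SVSC they went apart: before MDI the ratio of miR-206 to miR-133b was 34.0-fold higher (20.8 to 55.5), and that of miR-1 to miR-133a was 5.29-fold lower (4.70 to 5.96). Comparing IVSC MDI with SVSC MDI, the ratios were 89.0-fold higher (31.6 to 250.3) and 3.10-fold higher (2.77 to 3.48). A ratio within a library shows unequal change and does not tell which partner moved, and ligation and PCR act differently on each miRNA, so its size is not a ratio of molecules. On mature reads the ratio of miR-1 to miR-133a turned round in IVSC, at 2598 in IVSC MDI and 1489 in IVSC, but miR-133a had only 5, 11, 0 and 19 mature reads in the 4 libraries.

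**Figure D3:**
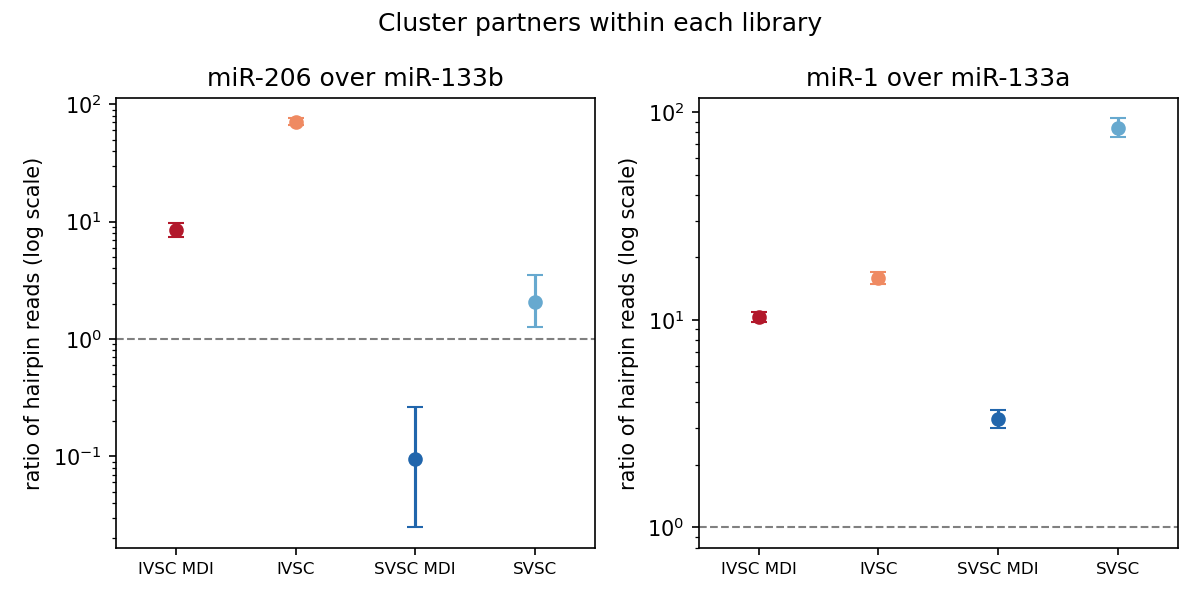
Hairpin reads of miR-206 per read of miR-133b (left) and of miR-1 per read of miR-133a (right) in each library (x axis), on log scales (y axis), with exact 95% counting intervals; the dashed line marks equal reads. Both ratios of hairpin reads are lower with MDI in both cell types. On mature reads miR-1 over miR-133a is 2598 in IVSC MDI and 1489 in IVSC. Hairpin reads of miR-206 fall below those of its partner in SVSC MDI, at 0.0952, on 4 and 42 reads.

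miR-1 and miR-206, which share a seed and had nearly all reads on the mature miRNA, were also added up. Together they had 1021 CPM in IVSC MDI, against 6115 CPM in IVSC, which was 5.99-fold lower. They had 662 CPM in SVSC MDI, against 1821 CPM in SVSC, which was 2.75-fold lower. Their summed reads were thus 3.36-fold higher in IVSC than in SVSC (3.32 to 3.40), and 1.54-fold higher in IVSC MDI than in SVSC MDI (1.47 to 1.62). Most mature reads of miR-1 differed from the annotated form, and whether they kept the seed was not tested. miR-206 supplied 13.7% of these reads in IVSC MDI, 79.7% in IVSC, 0.235% in SVSC MDI and 0.153% in SVSC. For the miR-133 pair only mature reads were counted. miR-133b had 200 of them in IVSC MDI, 857 in IVSC, 37 in SVSC MDI and 23 in SVSC, and miR-133a 5, 11, 0 and 19.

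The reads lay on different portions of the hairpins. Of the miR-206 hairpin, 99.3% to 100% of reads fell on the mature miRNA, and of miR-1 99.5% to 99.6%. Of miR-133b 82.0% fell there in IVSC MDI, 94.0% in IVSC, 88.1% in SVSC MDI and 95.8% in SVSC, and of miR-499 87.8%, 85.8%, 88.9% and 98.2%. No member had a read counted as star strand. Whether the annotation held a star strand for each was not checked, so star strand reads may be among those elsewhere on the hairpin. miR-133a was the exception: 0.395% of its reads in IVSC MDI (5 of 1266), 1.06% in IVSC (11 of 1036), none of 511 in SVSC MDI (exact upper limit 0.719%) and 4.64% in SVSC (18 of 388 on the larger copy) were mature. The rest lay elsewhere on the hairpin. Other miRNAs had such a pattern too: more than 95% of reads lay elsewhere on the hairpin for 28 of 180, 27 of 178, 24 of 154 and 32 of 170 miRNAs with at least 10 reads. The 2 copies of miR-133a had 1266 and 1253 reads in IVSC MDI, 1036 and 966 in IVSC, 511 and 511 in SVSC MDI and 388 and 354 in SVSC, with 0 mature reads unique to either, so mature reads cannot be assigned to a copy.

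The share of mature reads that match the annotated miRNA exactly split the seed partners. For miR-206 it was 94.0% in IVSC MDI, 96.1% in IVSC, 3 of 4 reads in SVSC MDI and 88.0% in SVSC. For miR-1 it was 8.77%, 7.61%, 8.38% and 8.33% in the same order, so more than 9 in 10 mature reads of miR-1 differed from the annotated form in every library. miR-133b had 12.5% and 20.5% in IVSC MDI and IVSC, then 1 of 37 reads in SVSC MDI and 0 of 23 in SVSC. miR-499 had 52.6% in IVSC MDI, 28.3% in IVSC, 12 of 24 reads in SVSC MDI and 27.8% in SVSC. Over all miRNAs with at least 10 mature reads the median share was 44.0%, 49.8%, 50% and 49.3%. On exact reads alone miR-499 was 2.11-fold higher in IVSC MDI than in IVSC (1.45 to 3.13), on 91 and 41 reads, where its hairpin reads did not differ beyond their interval.

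**Figure D4:**
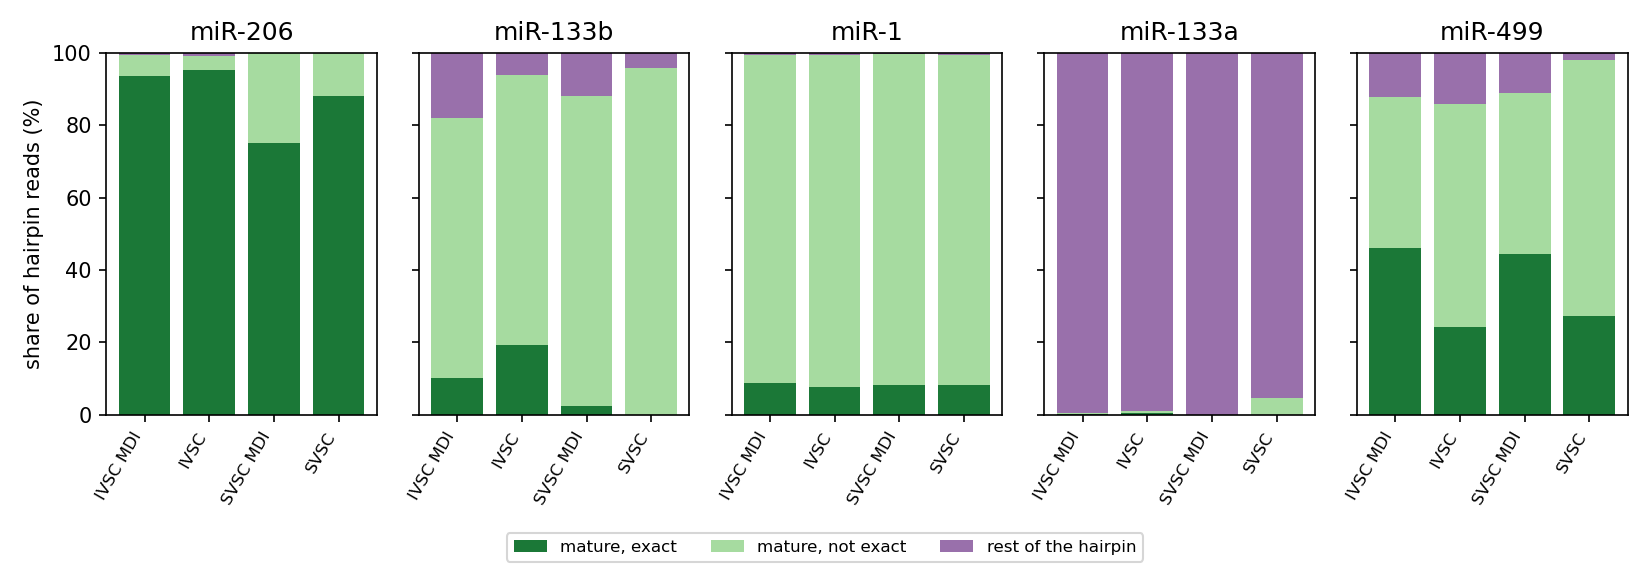
Share of hairpin reads in percent (y axis) that match the mature miRNA exactly (dark green), lie on the mature miRNA without an exact match (light green) or lie on the rest of the hairpin (purple), for each skeletal muscle miRNA and library (x axis). miR-206 is nearly all exact in IVSC, miR-1 is nearly all mature but mostly not exact, and miR-133a lies almost wholly on the rest of its hairpin.

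The miRNAs with the most similar patterns over the 4 libraries were found by the root mean square difference of centred log2 CPM, among 155 miRNAs, as a description with 1 library per group. miR-206 had no close match: the nearest was miR-411 at 2.94, with 89.5 CPM in IVSC MDI, 437 CPM in IVSC, 18.3 CPM in SVSC MDI and 28.9 CPM in SVSC, followed by miR-127 (2.95) and miR-376b (3.03). Its cluster partner miR-133b was 8th, at 3.46. For miR-133b the nearest were miR-376c (0.556), miR-136 (0.840) and miR-376b (0.912). miR-1 was nearest to miR-181d (0.134), miR-4332 (0.184) and miR-15a (0.206), and hairpin reads of miR-133a to miR-10b (0.269), miR-676 (0.293) and miR-339 (0.313). miR-499 was nearest to miR-335 (0.0922), miR-450c (0.113) and miR-10a (0.137). From the side of each other member, miR-206 was the least similar of all 154 miRNAs.

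Other miRNAs described as acting on muscle differentiation, or as lowered in it, were taken from lists. Of 13 miRNAs described as favouring it, 12 were compared, and shares of all miRNAs compared stand in parentheses after the counts. With MDI in IVSC 1 rose (16.4% of all), miR-181a by 2.56-fold (2.41 to 2.72), and 3 fell (23.7%): miR-503 5.14-fold, miR-214 2.11-fold and miR-378 2.04-fold. With MDI in SVSC 2 rose (34.2%), miR-148a 2.60-fold and miR-29c 2.45-fold, and none fell (21.9%). Between IVSC and SVSC 3 were higher in IVSC (20.9%), miR-148a 2.69-fold, miR-29c 2.61-fold and miR-503 2.55-fold, and miR-27b was 2.58-fold lower (7.43%). Between IVSC MDI and SVSC MDI none was higher (10.2%), and miR-214 was 2.20-fold and miR-27b 2.02-fold lower (17.7%). The list's median log2 ratios were 0.27, 0.36, 0.03 and -0.22 in this order, beside -0.04, 0.41, 0.25 and -0.13 over all miRNAs. Of other scalings, none kept the lower miR-27b of IVSC MDI against SVSC MDI. Only TMM and DESeq2 size factors kept the lower miR-214 there. The same pair alone kept the falls of miR-214 and miR-378 with MDI in IVSC. With DESeq2 size factors miR-503 was no longer called higher in IVSC than in SVSC. With TMM, DESeq2 size factors, or without the most abundant miRNA, miR-181a was called lower in IVSC than in SVSC.

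Of 7 miRNAs described as opposing muscle differentiation or as lowered in it, 6 were compared. No reads were listed for miR-31 among the pig hairpins. With MDI in IVSC miR-221, which holds back the exit from the cell cycle, fell 4.47-fold (1 of 6, 23.7% of all), and none rose. With MDI in SVSC miR-23a rose 2.44-fold, miR-125b 2.33-fold and miR-199a 2.16-fold (3 of 6, 34.2% of all), and none fell. These 3 rises, and the 2 of the favouring list, did not reach 2-fold under any of the 4 other scalings. Under all 4 miR-503 and miR-221 fell, and under TMM and all reads miR-29b fell too. miR-221 was 2.17-fold higher in IVSC than in SVSC, a call lost under the same 4 scalings, and no member of the list differed by 2-fold between IVSC MDI and SVSC MDI. The list's median log2 ratios were -0.12, 0.73, 0.72 and -0.18, beside the medians of all miRNAs given above.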

How the data were processed

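Small RNA (16 to 35 nt, 12 PCR cycles) from 4 pig cultures was sequenced for 36 cycles. The deposited values are read counts per feature, per the file headers, over pig hairpins, piRNAs, Rfam and Ensembl (Sscrofa9.61) non-coding RNAs. The submitters' processing notes name mm9 without a role. The sources used here name no aligner. Deposited columns used were total, mature, exact, uniquely mature, star and other hairpin counts. Rows without a resource name (1 in SVSC MDI, 3 in SVSC) were left out.

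Because copies share reads, a miRNA's hairpin total is that of its largest copy with the uniquely mature reads of the other copies added, scaled to the library's miRNA reads. Ratios have exact 95% Clopper-Pearson intervals, conditional on both libraries' reads. A count of 0 was set to 3 reads, and no ratio was formed where both counts were 3 or fewer. Reads had no molecular identifiers, so PCR copies count as separate reads. The difference of responses has a normal interval on the log scale.

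The additive model (origin and MDI state) was fitted with edgeR 4.0.16 (limma 3.58.1, R 4.3.3) with filterByExpr and TMM, and with DESeq2 1.42.0 as the alternative. Each SE given for edgeR was worked back from the log2 ratio and the F statistic of its quasi-likelihood test. Ratios used Python 3.11.15, SciPy 1.17.1, NumPy 2.4.6 and pandas 2.3.3, and figures matplotlib 3.10.9. The additive model was tried on simulated data with equal MDI changes in both cultures and less spread between libraries than was fitted here. That does not test it where the cultures respond in opposite directions. The 5 members, the 3 miRNAs most like each, and called members of 2 lists are named. Members and lists were chosen with earlier results of these data known. Alternatives were other scalings, read classes, copy rules, minimum levels and fold thresholds.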

Additional observations from a re-analysis of the deposited data

Results flagged for a closer look

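The values of 3 members and of 1 partner ratio went in opposite directions in the 2 cell types or states. None of these differences was tested, since each group has 1 library. The response of miR-133b to MDI differed by -5.67 on the log2 scale (IVSC minus SVSC), with a fall in IVSC and a rise in SVSC. The difference of IVSC from SVSC moved by 0.97 on the log2 scale for miR-1 (MDI minus undifferentiated), with IVSC MDI higher than SVSC MDI and IVSC lower than SVSC. For hairpin reads of miR-133a it moved by -3.07, with IVSC MDI lower than SVSC MDI and IVSC higher than SVSC. For the ratio of miR-1 to miR-133a it moved by 4.04. The values of miR-133a rest on reads outside the mature miRNA.

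The Rfam entries of the same files, which no comparison above uses, also held reads of these families. The mir-1 family had 13919 reads in IVSC MDI, 11928 in IVSC, 1683 in SVSC MDI and 31116 in SVSC, with 97.7% to 99.1% of them in the 2 largest entries. Per miRNA read these gave a ratio of 1.04 (1.02 to 1.07) for IVSC MDI over IVSC, where the hairpin gave 0.710, and 2.65-fold lower for SVSC MDI than SVSC, where the hairpin gave 2.75-fold lower. Rfam reads can be the same reads as those on the hairpin, so they are no independent count. The mir-133 family had 43, 14, 21 and 6 reads in the same order. The mir-499 family had 9 reads in SVSC and at most 1 in each other library.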

How the results depend on the processing

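With 1 library per group no replicate could be left out, and the only pairing is that of the additive model, which compares MDI within each culture. The falls of miR-206 and miR-133b with MDI in IVSC and the higher miR-206 of cells from muscle kept their direction under all alternatives that gave a value. Against scaling to miRNA reads, TMM, DESeq2 size factors, all reads in the file, and miRNA reads without the most abundant miRNA shifted all log2 ratios by -0.04, -0.02, 0.22 and 0.08 (MDI in IVSC), -0.50, -0.43, -0.49 and -0.40 (MDI in SVSC), -0.35, -0.37, -0.18 and -0.33 (IVSC over SVSC), and 0.12, 0.04, 0.52 and 0.15 (IVSC MDI over SVSC MDI). With TMM, 36 miRNAs rose and 45 fell with MDI in SVSC (50 and 32 with miRNA reads), 28 were higher and 24 lower in IVSC than in SVSC (31 and 11), and 20 were higher and 21 lower in IVSC MDI than in SVSC MDI (15 and 26). Scaled to all reads these were 33 and 44, 28 and 14, and 29 and 7, and with MDI in IVSC 32 rose and 21 fell (25 and 36).

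The count of members past 2-fold was 1 in place of 2 for MDI in IVSC and 1 in place of 3 for IVSC over SVSC at a minimum of 100 CPM, 1 in place of 3 for MDI in SVSC on exact reads, and 1 in place of 2 for IVSC MDI over SVSC MDI with all reads, mature reads or exact reads. Signs turned for miR-133a in IVSC with MDI (log2 -1.23 on mature and -0.49 on exact reads), in IVSC over SVSC (-0.14, mature) and in the additive model (-2.02 for MDI, -0.10 for origin, mature). They turned for miR-499 in SVSC with MDI (-0.31 TMM, -0.24 DESeq2 size factors, -0.30 all reads, -0.21 without the most abundant miRNA), and in the additive model scaled by library size only (0.12 for MDI). miR-133b turned in IVSC MDI over SVSC MDI on mature reads (-0.12). The cause was not tested, but the mature reads of miR-133a were 0 to 19.

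The ratio of miR-206 to miR-133b in IVSC MDI was 10.3 on mature and on uniquely mature reads and 77.4 on exact reads. On exact reads it was 350.2 in IVSC and at least 14.7 in SVSC, where miR-133b had 0 reads, and in SVSC MDI no ratio could be formed (3 reads and 1 read). The ratio of miR-1 to miR-133a was 2598, 1489, at least 565 and 1707 on mature reads (in the order IVSC MDI, IVSC, SVSC MDI, SVSC), 379.7, 312, at least 47.3 and 2702 on exact reads, at least 4329.7, 5459, 565 and 10813 on uniquely mature reads, and 5.18, 8.22, 1.66 and 43.9 with copies summed. Alternatives for the difference of responses were chosen after seeing the data. For miR-1 it was 1.43 (TMM), 1.37 (DESeq2 size factors), 1.67 (all reads), 1.45 (without the most abundant miRNA) and 1.08 (copies summed). For miR-133a on mature reads it was -1.68, with SVSC MDI set to the floor, and for miR-499 it was 0.34, 0.28, 0.57 and 0.35 under the same 4 scalings. In the additive model DESeq2 called 35 miRNAs for MDI and edgeR 19, and 10 against 5 for origin, with miR-206 called by both tools (DESeq2 adjusted p of 0.000719 and 1.78e-22). edgeR on mature reads called 31 for MDI. With MDI in IVSC the list favouring muscle differentiation had 2 rises and 1 fall with all reads (1 and 3 with miRNA reads), and in IVSC MDI over SVSC MDI 2 higher and 0 lower (0 and 2), an alternative chosen after seeing the data. Depth limits miR-206 in SVSC MDI (4 reads) and miR-133b in SVSC (24 reads).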
